A study of Mus musculus with 6 samples.

Results

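Glucocorticoid and other nuclear receptor genes were followed in sorted mouse fetal liver cells labelled erythroid precursors. The 10 genes were picked by symbol from the deposited gene table. They were 8 receptors (Nr3c1, Rara, Rarg, Rxra, Nr1h2, Nr1h3, Thra and Ppard) and 2 genes that glucocorticoids induce (Tsc22d3 and Fkbp5). All 10 had a row among the 19436 genes used, and all passed the filter on low values. The cells came from E14.5 embryos of strain C57BL/6, were sorted from fetal liver by medium CD71 and absent Ter119, and are labelled erythroid precursor cells. Wild type embryos (-77+/+, 3 libraries) were compared with -77-/- embryos (3 libraries), in which both alleles lack the -77 element, an enhancer upstream of Gata2, whose product is a transcription factor needed by early blood cells. The labels give no treatment, litter or batch. Separate embryos are not stated for the libraries, and p-values then measure only the spread between these samples, which may be technical.

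Nuclear receptors are transcription factors that small lipid-soluble ligands switch on. The glucocorticoid receptor, encoded by Nr3c1, waits in the cytoplasm bound to Hsp90 and its partners, moves to the nucleus when it binds a steroid, and is known for holding red cell progenitors in a dividing state during stress. Retinoic acid, thyroid hormone, liver X and peroxisome proliferator-activated receptors instead sit on DNA beside a retinoid X receptor and exchange corepressors for coactivators when ligand arrives. Retinoic acid receptors are known for their part in granulocyte maturation, and thyroid hormone receptor alpha for its viral relative v-erbA, which blocks red cell maturation in chickens.

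Libraries held 16516338 to 20468899 reads recovered from the deposited normalized read counts. The erythroid label was checked on 10 fixed erythroid markers: all 10 were lower in -77-/- (8 to 10 with 1 library left out, the fewest without -77-/- replicate 3, and 9 with edgeR), and their summed normalized read count ran from 42310 to 46195 in wild type and from 3137 to 7509 in -77-/-. Of 12 monocyte and macrophage markers 11 were higher in -77-/-. Cd14 did not pass, except without wild type replicate 1 (adjusted p = 0.038 by limma). The sum of the 12 ran from 2000.0 to 3291 in wild type and from 32119 to 42893 in -77-/-. In every -77-/- library this sum was above the erythroid sum, and in every wild type library it was below. These markers thus bear out the erythroid label less in -77-/- than in wild type. Of 8 tested lymphoid markers 7 were higher, or 3 without -77-/- replicate 1, and the sum ran from 1020 to 1117 and from 3262 to 5908. Hepatocyte markers were low, with 0 of 4 tested called by limma, edgeR, DESeq2 or limma-voom and sums of 48.9 to 207 and of 93.5 to 931, and Fgb and Apoa2 were listed at 0 in wild type. The high end was -77-/- replicate 3 alone, whose Alb and Afp stood at 435 and 395 normalized reads, above its Rara, Rarg and Rxra, while the other -77-/- libraries summed to 93.5 and 119. At an unadjusted p under 0.05, limma and limma-voom counted 0 hepatocyte markers and edgeR and DESeq2 1 each. Of 10 resident liver macrophage markers only 5 had a row and 3 were tested, and Clec4f, Vsig4, Cd5l, Timd4 and C1qa matched no row. Among those with a row, C1qb, C1qc and Marco stood at means of 0 to 10.9. Emr1 was higher, though not without wild type replicate 3 (adjusted p = 0.0751 by limma), and Slc40a1, the iron exporter, was lower. These shifts stood beside every result below, and their part in the results was not tested. In such bulk samples fewer cells of a type and less RNA per cell cannot be told apart.

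Of the 10 genes, 4 were higher and 3 lower in -77-/-, and 3 did not pass. The test was limma on log2(value + 1), with Benjamini-Hochberg adjustment over all 15821 tested genes and a threshold of 0.05; fold changes are -77-/- over wild type, with their standard error (SE). Across all tested genes 32.2% were called, 16.9% higher and 15.2% lower. In 8 of the 10 genes the libraries of the genotypes did not overlap, against 46.5% of all tested genes. The genes that rose were Tsc22d3, Fkbp5, Rara and Rarg. Those that fell were Nr3c1, Rxra and Thra. The 3 that did not pass were Nr1h2, Nr1h3 and Ppard. All 7 calls held in each of 14 alternative analyses. The authors' deposited table gives the same direction for all 10, with adjusted p-values for these 7 from 5.86e-13 for Thra to 0.00145 for Nr3c1.

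**Figure D1:**
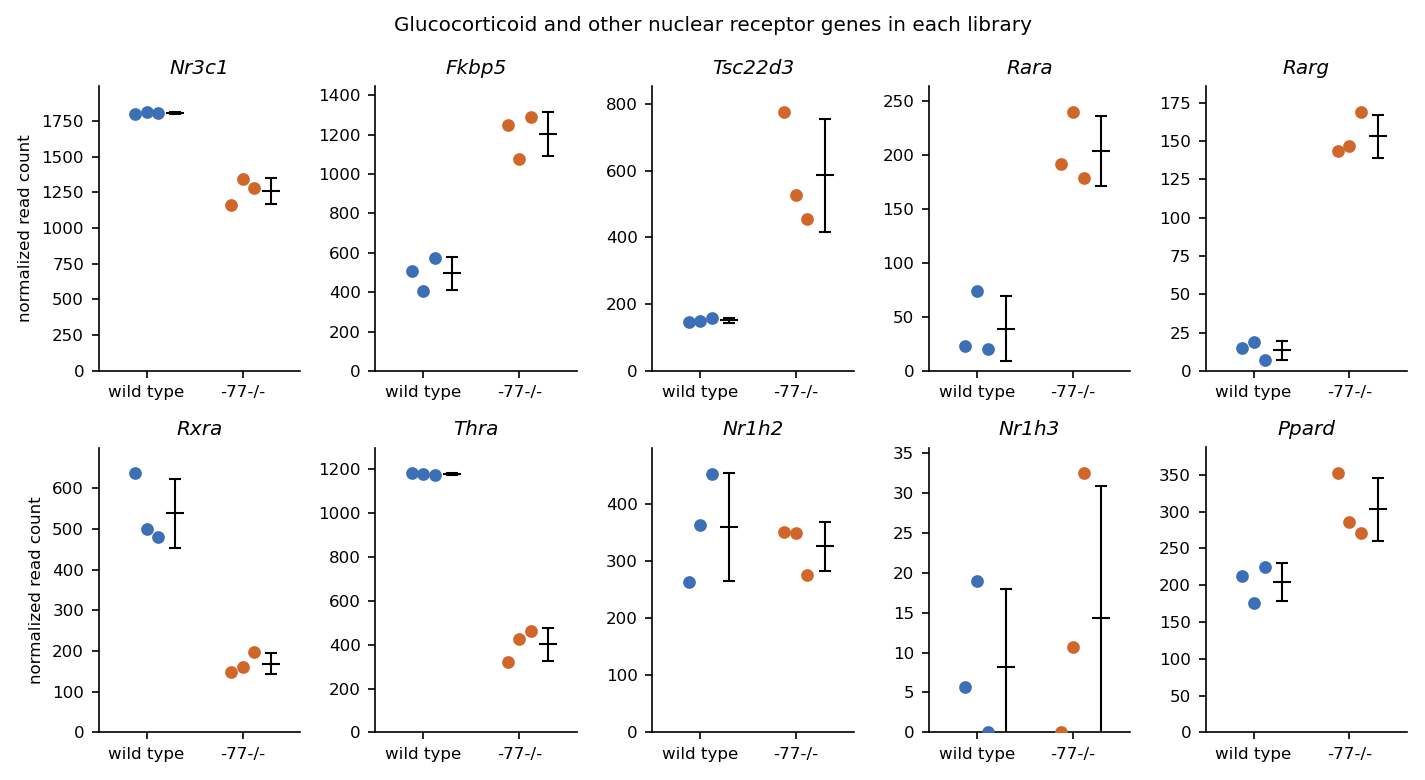
Normalized read count (linear axis from 0) of the 10 genes in each library, 3 wild type (blue) and 3 -77-/- (orange), with the mean and SD of each genotype in black beside the points. The genotypes are apart in every panel except Nr1h2 and Nr1h3, and Ppard, although apart, did not pass the test.

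Promoter sequences were read because Tsc22d3 rose with Fkbp5 and Rara rose with Rarg. RefSeq windows of 300 bases (build GRCm38.p6) were found for 8 of the 10 genes, 16 windows in all. A pair of cores was searched on both strands, and no matches overlapped in these windows: AGAACA (reverse complement TGTTCT), the core that the glucocorticoid receptor prefers, and AGGTCA (reverse complement TGACCT), the core shared by most other nuclear receptors. AGAACA was in 1 of the 16 windows (6.25%) and in 19% of 32851 windows of all genes. AGGTCA was in 3 of the 16 (18.8%) and in 16.3% of all windows. The 4 windows with a match are shown 5′ to 3′ on the gene's strand, with the matches in capitals.
Tsc22d3, chrX:140600473-140600772, minus strand: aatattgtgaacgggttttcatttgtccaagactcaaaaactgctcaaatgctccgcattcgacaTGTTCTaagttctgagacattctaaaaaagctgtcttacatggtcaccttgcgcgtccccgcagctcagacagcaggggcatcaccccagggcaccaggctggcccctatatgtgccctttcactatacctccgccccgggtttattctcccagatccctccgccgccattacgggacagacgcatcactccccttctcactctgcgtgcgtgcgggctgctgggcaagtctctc
Rara, chr11:98964622-98964921, plus strand: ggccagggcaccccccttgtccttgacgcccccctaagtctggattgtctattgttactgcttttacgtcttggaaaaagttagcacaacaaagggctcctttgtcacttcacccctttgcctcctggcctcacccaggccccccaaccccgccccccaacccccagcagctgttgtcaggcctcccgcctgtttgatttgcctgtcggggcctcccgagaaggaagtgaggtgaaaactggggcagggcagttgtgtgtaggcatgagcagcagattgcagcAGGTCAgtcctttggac
Rarg, chr15:102257473-102257772, minus strand: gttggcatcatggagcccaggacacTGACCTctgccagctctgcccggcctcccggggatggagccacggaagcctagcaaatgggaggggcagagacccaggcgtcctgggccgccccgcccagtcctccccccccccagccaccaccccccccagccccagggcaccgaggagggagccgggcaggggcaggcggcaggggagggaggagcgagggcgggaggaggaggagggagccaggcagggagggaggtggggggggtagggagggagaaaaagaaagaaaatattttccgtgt
Rxra, chr2:27709042-27709341, plus strand: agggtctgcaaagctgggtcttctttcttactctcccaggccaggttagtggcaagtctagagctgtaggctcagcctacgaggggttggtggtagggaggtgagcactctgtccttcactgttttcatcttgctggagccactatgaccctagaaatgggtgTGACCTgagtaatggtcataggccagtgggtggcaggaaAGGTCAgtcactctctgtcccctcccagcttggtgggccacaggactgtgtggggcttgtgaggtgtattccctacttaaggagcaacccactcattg
In the Tsc22d3 window shown the match began 185 bases before that window's annotated start. In the Rarg window it began 225 bases before the start, and in the Rara window 33 bases after it. The Rxra window, at one of its annotated starts, held a pair of AGGTCA cores on opposite strands, 87 and 48 bases before the start. Neither core was in the other windows of Tsc22d3, Rara, Rarg and Rxra, which lie at other annotated starts. Matches are letters only, and the windows of Fkbp5, Nr1h2, Nr1h3 and Ppard held neither core.

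Nr3c1 (ENSMUSG00000024431, chromosome 18), the glucocorticoid receptor, fell modestly. Normalized values for wild type replicates 1 to 3 were 1800.4, 1813 and 1803 reads, and for -77-/- replicates, in the same order here and below, 1158, 1342 and 1277 reads. The wild type libraries were nearly equal, and every -77-/- library was lower. Mean values of 1805 ± 6.71 and 1259 ± 93.1 (± is the SD of n = 3 libraries in every value of this kind) gave a ratio of 0.697 and a log2 ratio of -0.52 with an SE of 0.13, adjusted p = 0.00517 by limma. Nr3c2, which encodes the related mineralocorticoid receptor, stood at means of 10.9 ± 14.2 and 11.6 ± 10.1 and did not pass. Per kb of exon, Nr3c1 made up 98.3% to 100% of the Nr3c1 and Nr3c2 level in wild type and 98.2% to 100% in -77-/-.

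Fkbp5 (ENSMUSG00000024222, chromosome 17) encodes an immunophilin that binds Hsp90, lowers the receptor's affinity for hormone and is itself induced by the receptor. It had 509, 404 and 571 normalized reads in wild type and 1248, 1078 and 1287 in -77-/-. The lowest -77-/- library was well above the highest wild type library. The means rose from 495 ± 84.4 to 1204 ± 111 (log2 ratio 1.29 with an SE of 0.18, adjusted p = 5.23e-05 by limma).

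Tsc22d3 (ENSMUSG00000031431, chromosome X) encodes GILZ, a leucine zipper protein that glucocorticoids induce in many leukocytes and that restrains inflammatory transcription factors. It had 145, 151 and 158 normalized reads in wild type and 776, 527 and 454 in -77-/-. The wild type libraries were close together, and -77-/- replicate 1 was the highest of all. The means rose from 152 ± 6.53 to 586 ± 169 (log2 ratio 1.91 with an SE of 0.26, adjusted p = 5.49e-05 by limma), and the log2 fold change was 1.69 without -77-/- replicate 1. Wild type replicate 2 was the library with high Xist, at 41877 normalized reads, and its Tsc22d3 lay between the other wild type values.

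The retinoic acid receptor genes Rara and Rarg had low counts in wild type and rose in -77-/-, and Rarb did not pass. Rara (ENSMUSG00000037992, chromosome 11), the receptor rearranged in promyelocytic leukaemia in humans, had 23.5, 73.8 and 20.5 normalized reads in wild type and 192, 240.1 and 178 in -77-/-. Wild type replicate 2 was the highest of its genotype and still below every -77-/- library. The means went from 39.3 ± 30.0 to 204 ± 32.4 (log2 ratio 2.58 with an SE of 0.55, adjusted p = 0.00198 by limma). Rarg (ENSMUSG00000001288, chromosome 15), the gamma form, had 15.0, 19.0 and 6.84 in wild type and 143, 147 and 169 in -77-/-. Every wild type library was far below every -77-/- library. The means went from 13.6 ± 6.18 to 153 ± 13.9 (log2 ratio 3.50 with an SE of 0.66, adjusted p = 8.13e-04 by limma). Rarb, the beta form, stood at 4.69 ± 3.72 and 12.4 ± 18.3 (adjusted p = 0.884 by limma), and its genotypes overlapped.

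Whether Rarg rose more than Rara was tested on their log2 difference within a library. Rarg minus Rara was -0.61, -1.91 and -1.46 in wild type and -0.42, -0.71 and -0.08 in -77-/-. The genotypes overlapped, and the means differed by 0.92 (two-sided exact permutation p = 0.2; the smallest that 3 against 3 allows is 0.1). A different rise of the 2 receptors was therefore not resolved.

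Rxra (ENSMUSG00000015846, chromosome 2), the common partner of retinoic acid, thyroid hormone, liver X and peroxisome proliferator-activated receptors, fell. It had 636, 499 and 481 normalized reads in wild type and 148, 161 and 197 in -77-/-. No -77-/- library came near the wild type range. The means went from 539 ± 84.9 to 169 ± 25.3, 3.19-fold lower (log2 ratio -1.67 with an SE of 0.25, adjusted p = 1.15e-04 by limma). Its paralog Rxrb, at 458 ± 65.7 and 547 ± 20.6, did not pass (log2 ratio 0.26 with an SE of 0.20, adjusted p = 0.333 by limma). Per kb of exon, Rxra was 53.4%, 45.2% and 39.7% of the Rxra and Rxrb level in wild type and 16.3%, 17.3% and 21.5% in -77-/-. Rxrg matched no row.

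Thra (ENSMUSG00000058756, chromosome 11), thyroid hormone receptor alpha, fell, with the lowest adjusted p of the 8 receptors. It had 1181, 1176 and 1174 normalized reads in wild type and 319, 424 and 463 in -77-/-. The wild type libraries were nearly identical, and the -77-/- libraries were all far lower. The means went from 1177 ± 3.75 to 402 ± 74.2, 2.93-fold lower (log2 ratio -1.57 with an SE of 0.18, adjusted p = 1.05e-05 by limma). The exons of Thra share 263 bases with Nr1d1 on the opposite strand (GENCODE M21). The strand setting of the counting is not given, so reads there cannot be told apart. Nr1d1, a circadian repressor, stood at 121 ± 47.1 and 80.3 ± 20.2 and did not pass. Thrb, the beta form, was low and did not pass, at 15.6 ± 22.0 and 11.6 ± 9.84.

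Liver X receptors, which sense oxidised cholesterol, showed no difference that passed. Nr1h2 (ENSMUSG00000060601, chromosome 7), the form found in most tissues, had 263, 362 and 451 normalized reads in wild type and 351, 349 and 276 in -77-/-. The genotypes overlapped, with a log2 fold change of -0.12 and a 95% interval of -0.67 to 0.44 (limma adjusted p = 0.765). Nr1h3 (ENSMUSG00000002108, chromosome 2), the form of liver and macrophages, had 5.63, 19.0 and 0 in wild type and 0, 10.7 and 32.4 in -77-/-. That is 25 and 49 reads in all, with 1 library of each genotype at 0, where a floor of 3 reads corresponds to 3.42 and 3.05 normalized reads. Its log2 fold change of 0.52 had a 95% interval of -2.97 to 4.01 (limma adjusted p = 0.834), so a difference was not detectable at this depth. Nr1h3 minus Nr1h2 differed by 0.64 on the log2 scale between genotypes (two-sided exact permutation p = 0.7), and by -0.72 without wild type replicate 3 and -0.57 without -77-/- replicate 3.

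Ppard (ENSMUSG00000002250, chromosome 17), the widely expressed peroxisome proliferator-activated receptor and a regulator of fatty acid oxidation, was intermediate. It had 212, 176 and 224 normalized reads in wild type and 352, 286 and 271 in -77-/-. Each -77-/- library was above each wild type library, but the log2 fold change of 0.57 did not pass (95% interval -0.01 to 1.14, limma adjusted p = 0.123). Pparg, the form of fat cells and macrophages, rose from 9.38, 7.98 and 0 to 127, 184 and 264 (log2 ratio 5.34 with an SE of 0.98, adjusted p = 6.31e-04 by limma). Per kb of exon, Ppard was 89.6% to 100% of the Ppard and Pparg level in wild type and 28.8% to 52.1% in -77-/-.

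Levels were set side by side per kb of exon, with exon lengths from GENCODE M21, an annotation of GRCm38 and not of the mm9 build the submitters name. In wild type the order of the 10 genes was Thra, Nr3c1, Nr1h2, Rxra, Fkbp5, Tsc22d3, Ppard, Rara, Nr1h3 and Rarg. The leading values were 255 ± 0.813 for Thra and 235 ± 0.873 for Nr3c1, and Nr1h2 overlapped Rxra, as did Rara with Nr1h3 and Nr1h3 with Rarg. In -77-/- Nr3c1 led at 164 ± 12.1, overlapping Tsc22d3 at 135 ± 38.9, which overlapped Fkbp5 at 127 ± 11.7. Nr1h2 and Thra followed, also overlapping, then Rara, Ppard, Rarg and Rxra, each overlapping the next, and Nr1h3 came last. Rxra thus went from the fourth to the ninth place.

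Among all nuclear receptors with a row, 36 of 49, the summed level per kb was 1249 ± 16.7 in wild type and 1270 ± 16.6 in -77-/-, and the libraries overlapped. Without division by exon length the sum ran from 7392 to 7782 in wild type and from 6853 to 7260 in -77-/-. There every -77-/- library was below every wild type library. The make-up of the sum per kb differed as well. Thra held 20.4% ± 0.226 of the sum in wild type and 6.86% ± 1.24 in -77-/-, and Nr3c1 18.8% ± 0.243 and 12.9% ± 1.02. Rxra went from 7.89% ± 1.18 to 2.43% ± 0.338. Rara, Rarg and Pparg had larger shares in -77-/-: Rara went from 0.718% to 3.68%, Rarg from 0.255% to 2.83% and Pparg from 0.156% to 5.10%. Nr4a1, an immediate early orphan receptor named after its value was seen, went from 1.05% ± 0.861 to 12% ± 4.62.

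**Figure D2:**
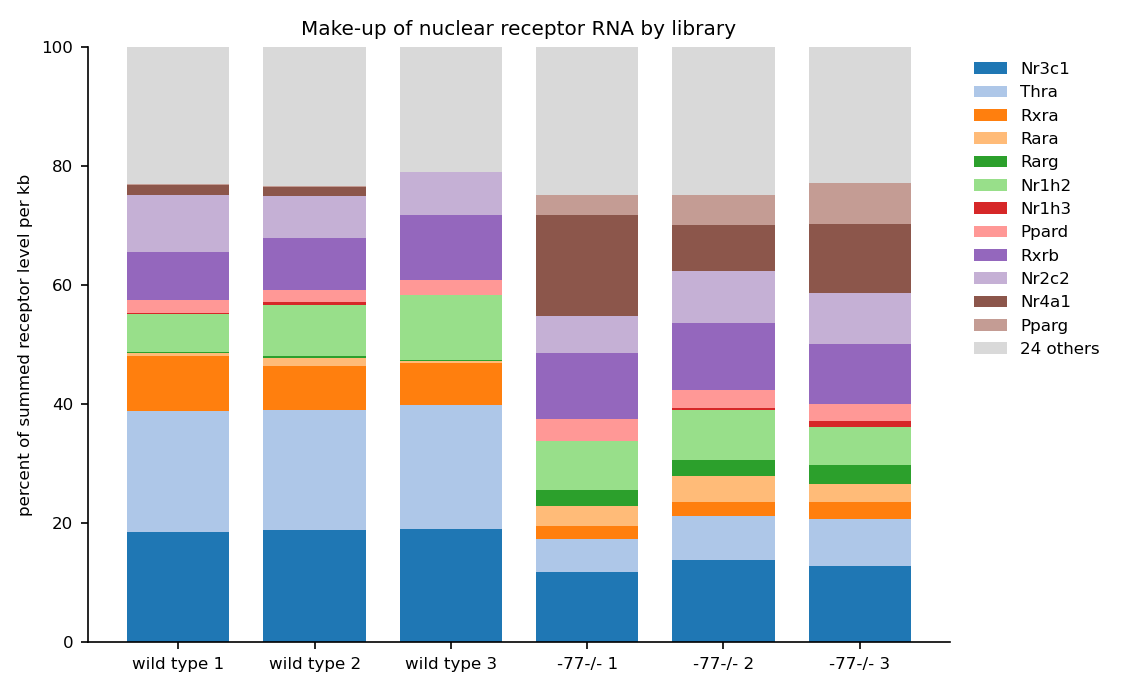
Share of the summed level per kb of exon (percent, 36 nuclear receptor genes) in each of the 6 libraries, with 12 genes coloured and the other 24 in grey. Nr3c1 and Thra together make up 38.9 to 39.8 percent in wild type and 17.3 to 21.2 percent in -77-/-.

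Of 33 tested nuclear receptors 5 were higher and 3 lower, or 24.2%, below the 32.2% of all tested genes, and 25 did not pass. Their median log2 fold change was 0.57, against 0.10 for all tested genes. Of the 25 tested that are not among the 8 described above, 3 were higher and 0 lower by limma: Pparg, Nr4a3 and Rora. At an unadjusted p under 0.05 limma counted 2 as lower, and after adjustment edgeR and limma-voom called 0 lower and DESeq2 1. Nr4a3, an orphan receptor related to Nr4a1, rose from 2.85 ± 3.37 to 35.3 ± 9.84 (limma adjusted p = 0.0319), but passed in 6 of 13 alternatives (adjusted p 0.0199 to 0.127). Its call ended without wild type replicate 2 (0.0533) and without -77-/- replicate 1, 2 or 3 (0.0594, 0.116 and 0.127). Rora, a receptor of lymphoid and other tissues, rose from 12.3 ± 10.9 to 82.2 ± 38.4 (limma adjusted p = 0.0318) and passed in 9 of 14 alternatives (0.014 to 0.15), its call ending without -77-/- replicate 1, 2 or 3 (0.0808, 0.15 and 0.0811). Nr4a1, at 69.4, 66.9 and 2.28 in wild type and 752, 339 and 521 in -77-/-, did not pass (log2 ratio 4.35 with an SE of 1.34, adjusted p = 0.0625 by limma). Nr2c2, an orphan receptor, stood at 1487 ± 284 and 1493 ± 260.2 and did not pass.

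**Figure D3:**
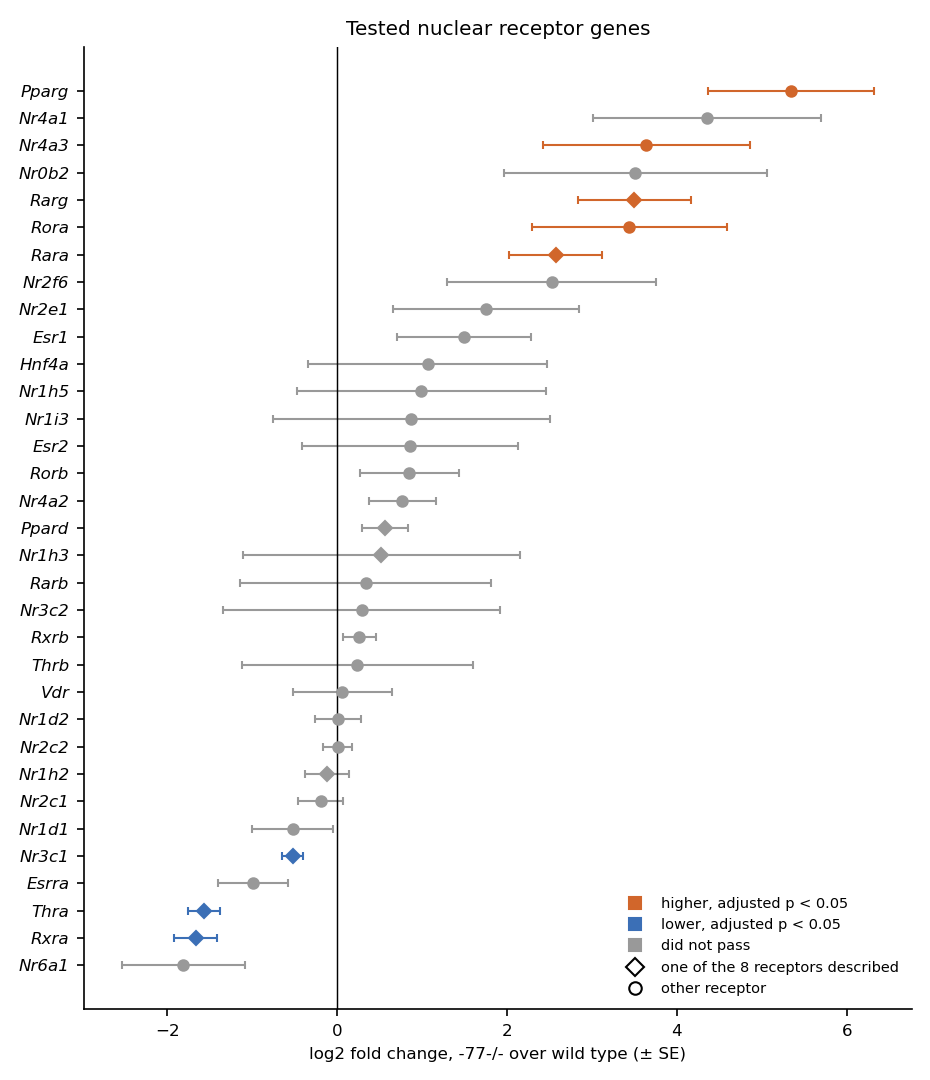
Log2 fold change of -77-/- over wild type with its SE for the 33 tested nuclear receptor genes, sorted. The described receptors (diamonds) reach from -1.67 for Rxra to 3.50 for Rarg, and Pparg is the highest at 5.34.

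Chaperones of the glucocorticoid receptor were mostly lower or did not pass. The list of 15 tested genes also holds Hsd11b1, an enzyme of glucocorticoid metabolism and not a chaperone, which did not pass. Of the 15, 1 was higher, Fkbp5, and 6 were lower (46.7% called, against 32.2% of all tested genes). The median log2 fold change was -0.28. Hsp90aa1, the inducible Hsp90 form, fell from 77286 ± 2632 to 47673 ± 5515 (log2 fold change -0.70), and Ppid, another immunophilin, from 7488 ± 492 to 3801 ± 633 (-0.99). Stip1, which links Hsp70 to Hsp90, Fkbp4, the immunophilin that opposes Fkbp5, Bag1 and Hspa8 had log2 fold changes of -0.45, -0.45, -0.42 and -0.28. Hsp90ab1, the constitutive Hsp90 form, stood at 85833 ± 4711 and 82886 ± 6491 and did not pass, nor did Hspa4 (-0.28, limma adjusted p = 0.0502). Hspa4 passed in 6 of 14 alternatives (adjusted p 0.016 to 0.159), among them without -77-/- replicate 3 (0.0471).

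Genes that glucocorticoids induce in other cells were split, with more higher than lower. Of 33 tested, Tsc22d3 and Fkbp5 included, 17 were higher and 6 lower (69.7% called, against 32.2% of all tested genes) and 10 did not pass, with a median log2 fold change of 1.33. With 1 library left out 16 to 24 were called, the fewest without -77-/- replicate 3. Without those 2 genes the counts were 15 higher and 6 lower of 31. Il6ra, an interleukin-6 receptor chain, rose from 93.9 ± 27.6 to 1816 ± 206 (log2 ratio 4.29 with an SE of 0.24, adjusted p = 6.10e-09 by limma). Klf4, a transcription factor of monocytes, rose from 246 ± 97.6 to 3906 ± 343, and Errfi1, an inhibitor of EGF receptors, from 20.4 ± 21.7 to 146 ± 67.3. Errfi1 passed in 9 of 14 alternatives (adjusted p 0.00512 to 0.117) and did not without -77-/- replicate 1, 2 or 3 (0.0932, 0.0645 and 0.0592). Per1, a clock gene, and Dusp1, a phosphatase of MAP kinases, had log2 ratios of 0.89 and 1.59. The 6 that were lower were Mt1, Mt2, Tgfbr3, Klf9, Irs2 and Nfkbia: Mt2, a metallothionein, fell from 2165 ± 495 to 146 ± 139 (log2 fold change -4.26), and Klf9 from 322 ± 62.0 to 51.4 ± 60.1. Zbtb16 and Sgk1, both strongly inducible by steroid elsewhere, did not pass, at 260 ± 44.9 and 296 ± 69.0 and at 162 ± 76.2 and 292.5 ± 87.5; Sgk1 passed without wild type replicate 3 (adjusted p = 0.0196, range 0.0196 to 0.279). Many genes of this list also respond to cytokines or are active in monocytes. Examples are Il6ra, Klf4, Cebpd, Il1r2 and Zfp36, each called higher, and Nfkbia, Mt1 and Mt2, each called lower. What part this had in the counts was not tested.

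Coregulators, which receptors recruit to open or close chromatin, included calls in both directions: 7 of 22 were higher, 4 lower and 11 did not pass (median 0.25). That is 50% called, against 32.2% of all tested genes, but 6 of 22 were called without -77-/- replicate 2. The coactivator Ncoa3 rose from 525 ± 157 to 2747 ± 158 (log2 ratio 2.42 with an SE of 0.18, adjusted p = 1.04e-07 by limma). Parts of the corepressor complex diverged: Tbl1xr1 was higher, with a log2 ratio of 1.06, and Gps2 was lower, with -0.73. Ncor1 and Med1 did not pass, at 7064 ± 1291 and 6582 ± 239 and at 3730 ± 129 and 3293 ± 44.0.

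Targets of the other receptors were split. Of 17 tested liver X receptor targets, 8 were higher and 2 lower (58.8% called, against 32.2% of all tested genes, median 0.52). The number called was 7 to 9 with 1 library left out. The cholesterol exporters Abca1 and Abcg1 had log2 fold changes of 2.84 and 3.03, Abcg1 rising from 153 ± 35.8 to 1232 ± 45.5, and Arl4c rose by 3.69. The sterol transporter Abcg4 fell from 770 ± 99.2 to 16.7 ± 10.3, and the desaturase Scd1 from 1223 ± 403 to 102 ± 85.1. Fasn and Lpcat3 did not pass.

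Of 11 tested genes of retinoic acid response and retinoid handling, 1 was higher and 2 were lower, or 27.3%, which is no more than the 32.2% called over all genes. Dhrs3, a retinaldehyde reductase that retinoic acid induces, rose from 68.4 ± 51.9 to 456 ± 66.2 (log2 fold change 3.15, limma adjusted p = 0.00737). Tgm2, a transglutaminase, fell from 961 ± 55.6 to 116 ± 70.2, and Rdh11 had a log2 fold change of -0.79, its call ending without -77-/- replicate 3 (adjusted p = 0.0521, range 0.00765 to 0.0521). Cebpe and Rdh10 did not pass. A further 8 genes were too low to test, of which Cyp26b1 was listed at 0 in wild type and Crabp2, Aldh1a1 and Aldh1a2 in -77-/-.

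Of 18 peroxisome proliferator-activated receptor targets, 3 were higher and 5 lower (44.4% called, against 32.2% of all tested genes), and the number called was 5 without wild type replicate 2 and 4 without -77-/- replicate 2 or 3. Ehhadh, Fabp5 and Acadvl, of fatty acid oxidation and transport, had log2 fold changes of -2.04, -1.33 and -0.69. Etfdh and Acadl did not pass. Of 10 tested thyroid hormone targets, 3 were higher, Bcl3 and Ctsl among them, and 1, Klf9, was lower (40% called, against 32.2% of all tested genes), and 2 were called without -77-/- replicate 3. Ctsl, cathepsin L, rose from 450 ± 176 to 823 ± 20.5 and Bcl3 from 4.44 ± 5.31 to 97.3 ± 24.1. The call of Klf9 ended with edgeR (adjusted p = 0.0636) and without -77-/- replicate 3 (0.0704; range 1.58e-04 to 0.0704).

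**Figure D4:**
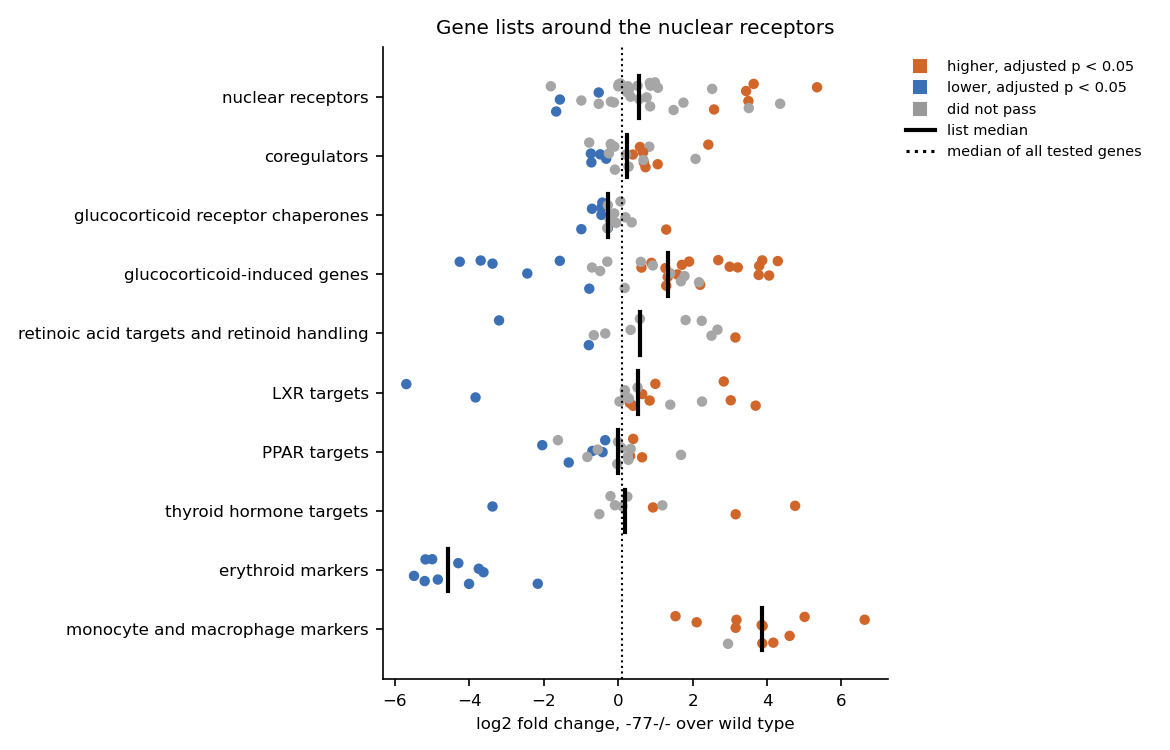
Log2 fold change of each tested gene (points) in 10 fixed lists, with the list median (black bar) and the median of all tested genes (dotted line, 0.10). Glucocorticoid-induced genes lie mostly to the right, with a median of 1.33, and receptor chaperones mostly to the left, with -0.28.

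The genes most like Nr3c1 over the 6 libraries, by the root mean square difference of centred log2 values among 9743 other genes, were Asxl2 (0.06), Xrcc1 (0.06) and Clint1 (0.06). Among receptors, coregulators and chaperones the nearest were Bag1 (0.08), Nrip1 (0.12) and Tbl1x (0.13), at ranks 25, 223 and 294.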

How the data were processed

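Per the labels' protocols, RNA of sorted E14.5 fetal liver cells (10 ng) was made into libraries with a NuGEN Ovation Single Cell kit. The genome build was mm9 and the tools named are STAR 2.5, Bowtie, DESeq2 and RSEM 1.2.31, per the submitters' processing notes; what each aligner did, the annotation and the strand setting are not given in the sources used here. Library columns that the authors deposited are a normalized signal: gene counts divided by 1 size factor per library, since after leaving out 8 rows with displaced cells 100% of values were whole multiples of 1 step (tolerance 0.01 read). If RSEM made the counts, they are estimates rounded to whole numbers, and a listed 0 may still hide matching reads. The authors' deposited table also holds their own fold changes and adjusted p-values, which were not used for calls.

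The test was limma 3.58.1 in R 4.3.3 (trend, robust) on log2(value + 1), for genes with a mean of at least 10 in the higher genotype. edgeR 4.0.16, DESeq2 1.42.0 and limma-voom on recovered reads, pseudocounts of 0.1 and 5, other filters, TMM scaling and leaving out each library were alternatives. Floors cover counting error only; the 95% intervals of log2 ratios are those of limma over libraries. The members and lists were chosen with earlier results of these data known. Named from each list were the 4 largest non-overlapping called changes and the 2 genes of highest mean normalized count that did not pass; a few further genes were named after their values were seen, and some that the rule names are not reported here. Replicate numbers follow accession order and pair no samples.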

Additional observations from a re-analysis of the deposited data

How the results depend on the processing

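No paired analysis was possible because the labels give no replicate numbers or pairs. All genes called ran from 3915 to 5280 over 14 alternatives, and 4 of the 10 described genes were higher and 3 lower in each. With 1 library left out, coregulators called ran from 6 to 11, peroxisome proliferator-activated receptor targets from 4 to 7, thyroid hormone targets from 2 to 4 (2 with edgeR), resident liver macrophage markers from 1 to 2 and lymphoid markers from 3 to 6. Some log2 ratios that had not passed changed sign when 1 library was left out, and the cause was not tested. Nr1h3 minus Nr1h2 ran from -0.721 to 2.131, Nr1h2 from -0.322 to 0.067 and Nr1h3 from -0.653 to 1.956. Nr2c2 ran from -0.075 to 0.160, Ncor1 from -0.228 to 0.040 and Hsp90ab1 from -0.096 to 0.013. Lpcat3 ran from -0.109 to 0.170, Cebpe from -0.814 to 0.308, Acadl from -0.116 to 0.068 and Alb from -0.321 to 1.487. Nr1h3 had no value with a minimum mean of 50 or without -77-/- replicate 3. Low genes limit the precision: Nr1h3 rests on 25 and 49 reads.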

Other observations

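Wild type Nr3c1 and Thra varied less than counting error alone would give. Their SD over 3 libraries was 6.71 and 3.75 normalized reads, against 43.0 and 34.7 from counting error. The ratio of SD to counting error was 0.156 and 0.108, which 0.23% and 0.0861% of 3483 genes with a wild type mean of at least 1000 reached, where the median ratio was 4.58. Both genes were picked out after their values were seen. The spread in -77-/- was larger, at 93.1 and 74.2.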
